A study of Mus musculus with 6 samples.

Results

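Spi1, Cebpa, Cebpb, Cebpd, Maf, Mitf, Tfec, Runx1 and Runx3 are 9 genes of transcription factors that shape the myeloid lineage, the branch of blood cells to which macrophages belong. They were taken by gene name from the 54532 genes of a deposited expression table, and all 9 were found there. The RNA came from peritoneal macrophages of wild-type male C57BL/6J mice aged 6 to 8 weeks, and 3 groups of 2 libraries were sequenced. All mice had received thioglycolate medium, an irritant that draws monocytes into the peritoneal cavity, 5 days before the cells were collected and cultured overnight. Control cells were left untreated. Model cells were given LPS, a bacterial cell wall component, at 500 ng/mL for 5.5 h and then ATP at 2 mM for 0.5 h, the sequence that assembles the NLRP3 inflammasome. MUS cells were given the same LPS and ATP, with muscone, the macrocyclic ketone of musk, at 50 μM from 0.5 h before ATP. No group received LPS, ATP or muscone alone, so LPS and ATP cannot be told apart in Model vs. Control. These are elicited cells, which differ from the resident macrophages of an unstimulated peritoneum.

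Macrophage identity rests on a small set of DNA-binding proteins that act together. PU.1, the product of Spi1, opens enhancers, the distal control regions of genes, in every myeloid cell, and C/EBP, RUNX and MAF family proteins bind beside it. In the C/EBP family, C/EBPα directs progenitors to the monocyte and granulocyte lineages, whereas C/EBPβ and C/EBPδ are known as factors of the inflammatory and acute-phase response. MITF and TFEC belong to the MiT family, whose members pair with each other on E-box sequences and serve osteoclasts, mast cells and macrophages.

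Levels are given as FPKM, fragments per length of gene and size of library. For the members, the length used was that of all annotated exons of a gene joined. Levels, shares and ratios set side by side between genes therefore rest on that annotation, and which of these exons the cells use was not tested. Between 15526321 and 17135442 fragments lay on genes in a library, and between 17406 and 24906 genes had at least 1 fragment, with the highest number in Model replicate 1. The markers of peritoneal macrophages were present: 10 of 10 had a mean of at least 1 FPKM, and their summed level was between 9190 and 14052 FPKM in a library. Among markers of other cells, 0 of 8 T and NK cell genes, 1 of 6 B cell genes (Ighm), 1 of 6 neutrophil genes (S100a8), 0 of 6 mast cell and basophil genes and 1 of 5 eosinophil genes (Siglecf) reached that mean. In the deposited scaling, the factor that sets FPKM per library was 1.45 and 1.34 times the fragments on genes in the Control libraries but 0.909 to 0.998 times in the Model and MUS libraries. Division by fragments on genes in place of that factor moved the median log2 fold change of all genes tested from 0.04 to -0.40 in Model vs. Control and from 0.04 to -0.39 in MUS vs. Control. The ratio of a pair of genes within a library does not depend on this factor.

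The members ranged from among the most abundant mRNAs of these cells to hardly detectable. Cebpb and Spi1 were the highest, with means over the 6 libraries of 171 and 143 FPKM. Next came Cebpa at 42.3, Mitf at 34.5, Maf at 15.3, Tfec at 11.4 and Runx1 at 7.97 FPKM. Cebpd at 2.58 FPKM and Runx3 at 0.284 FPKM were the lowest. These 9 means are averages over groups that differed for some members, and neighbours such as Cebpb and Spi1 or Cebpa and Mitf changed places between libraries.

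In cells given LPS and ATP, the mean level of Control was 9.91 times that of Model for Cebpa, while Maf rose 2.93-fold and Tfec 3.66-fold. The other 5 tested members did not pass the test. With muscone, 0 members were DEGs against Model. A gene was called a differentially expressed gene (DEG) when its limma p, adjusted by the Benjamini-Hochberg method over all 9794 genes tested, was at most 0.05 and its absolute log2 fold change on the log2(FPKM + 1) scale was over 1. Runx3 did not reach the mean of 1 FPKM that this test required, so 8 of the 9 members were tested. In Model vs. Control, 3 of the 8 members were DEGs, beside 15.1% of all genes tested. Of these 3, 2 were upregulated, beside 9.5% of all genes, and 1 was downregulated, beside 5.56%. Of 14 alternatives to this fit, the call of Maf was lost in 10, that of Tfec in 10 and that of Cebpa in 1. In MUS vs. Model, 0 of 8 members and 0% of all genes were DEGs by limma. Before adjustment, 825 genes (8.42%) had a p under 0.05, and Cebpd was the only member among them. With voom on recovered fragments, 0 genes were called in MUS vs. Model. In MUS vs. Control, 2 of 8 members and 20.2% of all genes were DEGs, with Tfec upregulated beside 11.3% of all genes and Cebpa downregulated beside 8.91%. Among the 525 tested genes with a transcription factor family in the table, 15.8% were DEGs in Model vs. Control and 20.2% in MUS vs. Control. The libraries of the 2 groups did not overlap for 5 of 8 members in Model vs. Control, beside 61.1% of all genes, for 5 of 8 in MUS vs. Model, beside 42.1%, and for 8 of 8 in MUS vs. Control, beside 73.3%. In MUS vs. Control the gap was narrow for Spi1, at 132.6 FPKM in MUS replicate 1 and 132.5 FPKM in Control replicate 2. Divided by fragments on genes, the log2 fold changes of Spi1, Cebpb and Runx1 there turned negative, as did the median of all genes. The 3 comparisons share their libraries in pairs and are not independent of each other.

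**Figure D1:**
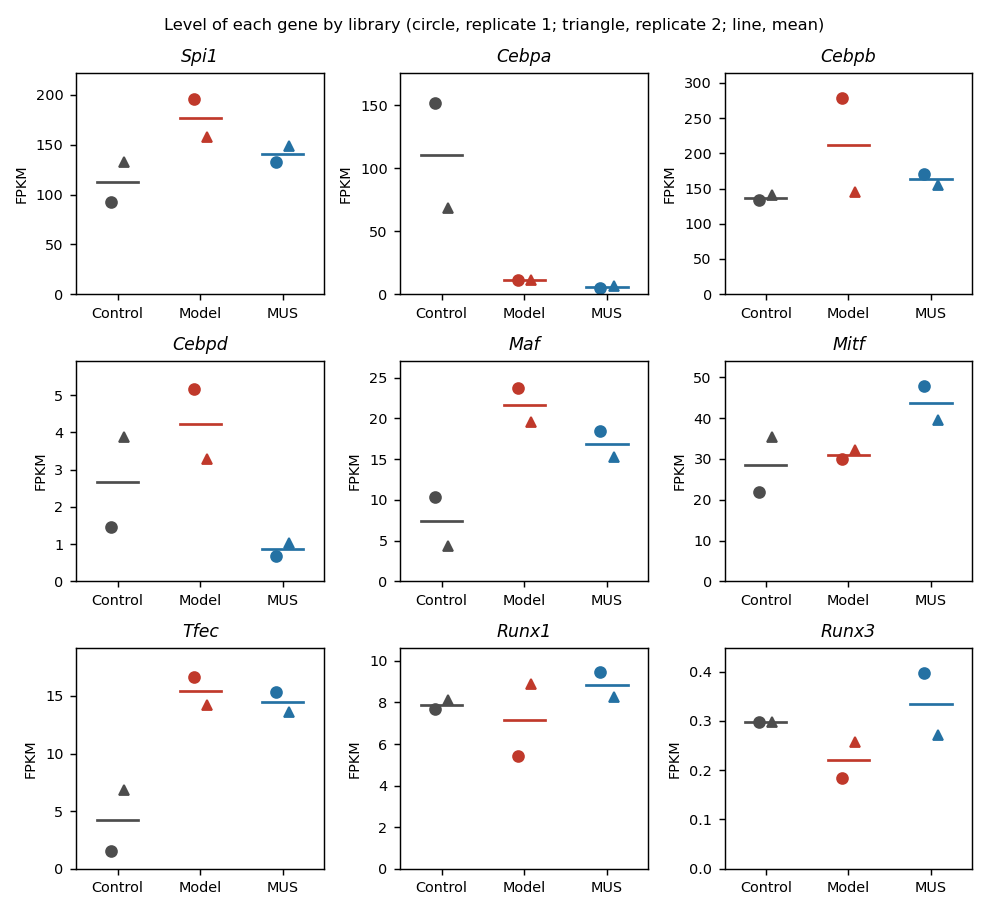
Level of each of the 9 genes in FPKM (vertical axis, each panel with its own scale from 0) in the 2 libraries of Control, Model and MUS; circles are replicate 1, triangles replicate 2 and lines group means. Cebpa is at 152 and 68.4 FPKM in Control and below 12 FPKM in the other 4 libraries, whereas Tfec and Maf are higher in those 4 libraries than in either Control library.

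**Figure D2:**
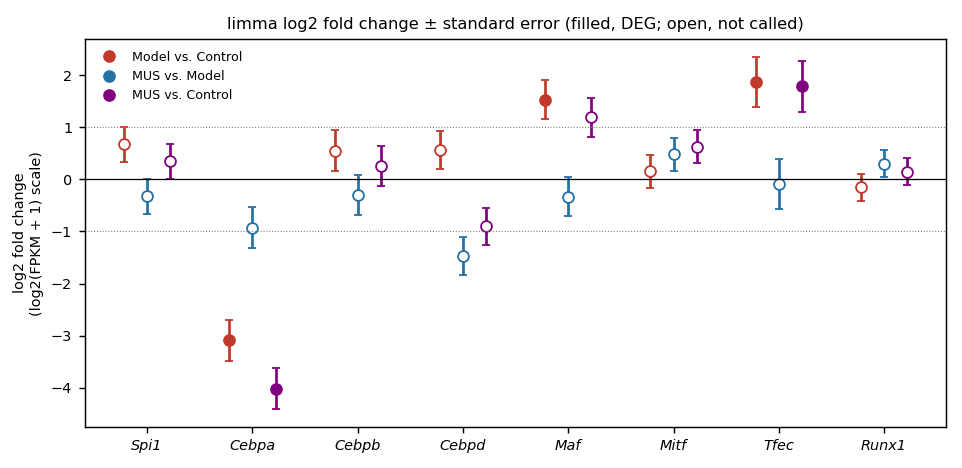
Log2 fold change on the log2(FPKM + 1) scale (vertical axis) with its standard error from limma for the 8 tested genes in each of the 3 comparisons (by colour); filled points are DEGs and dotted lines mark a log2 fold change of 1 in either direction. Cebpa lies below the lower line in both comparisons with Control, and 0 points of MUS vs. Model are filled.

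Spi1 (ENSMUSG00000002111, chromosome 2, 91082390 to 91115756, plus strand, on GRCm38) encodes PU.1, the ETS family factor without which macrophages do not form. Its level was 92.2 and 132 FPKM in Control, 196 and 158 FPKM in Model, and 133 and 149 FPKM in MUS. Both Model libraries lay above both Control and both MUS libraries. The group means were 112 ± 28.5 FPKM (SD, n = 2) in Control, 177 ± 27.0 in Model and 141 ± 11.6 in MUS. In Model vs. Control the log2 fold change was 0.67 with a 95% interval of -0.12 to 1.46, and it did not pass the test (limma, adjusted p = 0.209). Between MUS and Model it was -0.32, with an interval of -1.12 to 0.47 (limma, adjusted p = 0.855). Spi1 was not called in either comparison, and a change of 2-fold lies within the interval of each.

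Cebpa (ENSMUSG00000034957, chromosome 7, 35119293 to 35121928, plus strand) encodes C/EBPα, and of the 8 tested members it had the largest log2 fold change in both comparisons with Control. Its level was 152 and 68.4 FPKM in Control, 11.4 and 10.9 FPKM in Model, and 4.54 and 6.33 FPKM in MUS. Each Model library was below each Control library, and each MUS library was below each Model library. The 9172 and 4124 fragments of the Control libraries stood against 423 and 445 for Model and 181 and 271 for MUS. Among all genes of a library ordered by FPKM, Cebpa stood at rank 161 and 461 in Control, at rank 3071 and 3094 in Model, and at rank 5351 and 4489 in MUS.

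The mean of Cebpa was 110.3 ± 59.3 FPKM in Control, 9.91 times that of Model (11.1 ± 0.336) and 20.3 times that of MUS (5.44 ± 1.26; SD, n = 2 each). In Model vs. Control it was downregulated with a log2 fold change of -3.09 ± 0.40 (SE; limma, adjusted p = 0.00462), lower in 2 of 2 libraries. It stood at rank 7 from the lowest of the 9794 genes tested, but at rank 54 with a pseudocount of 0.1 and 55 with voom on recovered fragments, and among the 525 tested genes to which the table gives a transcription factor family Cebpa had the lowest log2 fold change. For MUS against Control the log2 fold change was -4.02 ± 0.40 (limma, adjusted p = 0.00187), and again no other of the 525 genes was lower. With that pseudocount or with voom, Cebpa was at rank 4 and 5 from the lowest of the 525 in Model vs. Control and at rank 2 in MUS vs. Control under either. For MUS against Model the log2 fold change was -0.93, with a 95% interval of -1.86 to 0.0054, and did not pass the test (limma, adjusted p = 0.598). Of 14 alternatives, 1 ended the call in Model vs. Control, namely when genes of low FPKM were kept in the test (limma, adjusted p = 0.0543). In bulk RNA, less mRNA per cell and fewer cells that express a gene cannot be told apart.

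Cebpb (ENSMUSG00000056501, chromosome 2, 167688915 to 167690418, plus strand), a gene of a single exon, encodes C/EBPβ. Its level was 133 and 141 FPKM in Control, 278 and 146 FPKM in Model, and 171 and 155 FPKM in MUS. Model replicate 1 alone stood high, at 1.91 times Model replicate 2, and the latter lay between the Control and the MUS libraries. Of its exonic length, 20.7% is also exon of Tmem189 on the opposite strand, and the counting is not stated to use strand, so reads of the pair cannot be told apart there. Model vs. Control gave a log2 fold change of 0.55 with a 95% interval of -0.37 to 1.47 (limma, adjusted p = 0.354). MUS vs. Model gave -0.30 with an interval of -1.22 to 0.62 (limma, adjusted p = 0.887). Without Model replicate 1 the value of MUS vs. Model turned to 0.16, and with voom that of Model vs. Control was -0.0030, so no direction can be given for Cebpb.

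Cebpd (ENSMUSG00000071637, chromosome 16, 15887286 to 15891031, plus strand) encodes C/EBPδ, which in macrophages is best known as an LPS-induced factor. Its level was 1.47 and 3.87 FPKM in Control, 5.16 and 3.27 FPKM in Model, and 0.689 and 1.04 FPKM in MUS. Control and Model overlapped, whereas both MUS libraries lay below all others. Of its exonic length, 15% is also exon of Spidr on the opposite strand. Behind these levels were 126 and 332 fragments for Control, 273 and 190 for Model, and 39 and 63 for MUS. The Poisson 95% interval of the higher MUS library, 0.796 to 1.32 FPKM, did not reach that of the lower Model library, 2.82 to 3.77 FPKM, and covers counting error only. The mean of Model was 4.89 times that of MUS and the mean of Control 3.10 times that of MUS. In MUS vs. Model the log2 fold change was -1.47 ± 0.36 (SE), 2 of 2 libraries lower, at rank 75 from the lowest of the 9794 genes. After adjustment over all genes it did not pass the test (limma, adjusted p = 0.380). Against Control, MUS had a log2 fold change of -0.90 (limma, adjusted p = 0.110). Cebpd became a DEG in that comparison in 4 of 13 alternatives, among them when libraries were divided by their fragments on genes (-1.27, limma, adjusted p = 0.0342) and without Control replicate 1 (-1.39, limma, adjusted p = 0.0468).

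Among the 3 C/EBP members, Cebpa held a larger share of the summed level in both Control libraries than in the other 4. Other genes of the family, such as Cebpg and Ddit3, are not in this sum. Cebpg was at 14.2 and 10.6 FPKM in Control, 6.77 and 6.99 FPKM in Model, and 7.31 and 7.08 FPKM in MUS. Of the summed FPKM of Cebpa, Cebpb and Cebpd, Cebpa held 53.0% and 32.1% in the Control libraries, 3.86% and 6.82% in the Model libraries, and 2.58% and 3.89% in the MUS libraries. Cebpb held 46.5% and 66.1% in Control and between 91.1% and 97.0% in the other 4 libraries. The summed level itself was 287 and 213 FPKM in Control, 295 and 160 FPKM in Model, and 176 and 163 FPKM in MUS, so the groups overlapped in the sum. The share of Cebpd stayed between 0.390% and 2.05% in every library.

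The ratio of Cebpb to Cebpa within a library was 0.877 and 2.06 for Control, 24.5 and 13.4 for Model, and 37.7 and 24.5 for MUS. The 4 libraries that received LPS and ATP had a ratio 17.5 times that of Control in the geometric mean, a log2 difference of 4.13. All 4 were above both Control libraries, with a two-sided exact permutation p of 0.0667, the smallest that 2 libraries against 4 can give. Over the 18 ratio comparisons made, its Benjamini-Hochberg adjusted value was 0.4. For Model against MUS, as for all comparisons of 2 libraries against 2, the exact permutation test cannot give a p under 0.333. The ratio of Cebpb to Cebpd was 90.7 and 36.3 for Control, 53.8 and 44.5 for Model, and 248 and 150 for MUS. Both MUS libraries were above the other 4, and the ratio in MUS was 3.95 times that in Model (two-sided exact permutation p = 0.333, adjusted 0.462).

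**Figure D3:**
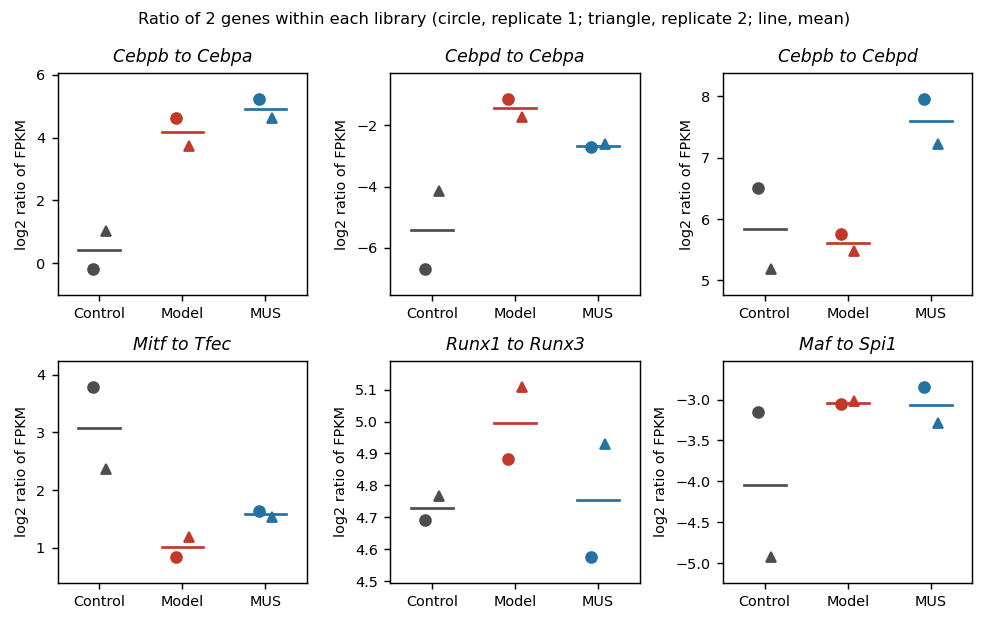
Log2 ratio of the FPKM of 2 genes within each library (vertical axis, each panel with its own range) in Control, Model and MUS; circles are replicate 1, triangles replicate 2 and lines means of log2 ratios. Cebpb to Cebpa is between 3.74 and 5.24 in the Model and MUS libraries and below 1.1 in Control, and Cebpb to Cebpd is highest in the 2 MUS libraries.

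The windows around the transcription starts of Cebpa and Cebpb are shown because Cebpa had the largest log2 fold change of the tested members in size against Control, and Cebpb the highest mean level. Each runs from 250 bases before the RefSeq start to 50 bases after it on GRCm38.p6, on the plus strand and 5′ to 3′, and capitals mark matches to the motifs searched. RefSeq windows were at hand for 6 of the 9 members and not for Spi1, Cebpd and Maf.
Cebpa, chr7:35119043-35119342: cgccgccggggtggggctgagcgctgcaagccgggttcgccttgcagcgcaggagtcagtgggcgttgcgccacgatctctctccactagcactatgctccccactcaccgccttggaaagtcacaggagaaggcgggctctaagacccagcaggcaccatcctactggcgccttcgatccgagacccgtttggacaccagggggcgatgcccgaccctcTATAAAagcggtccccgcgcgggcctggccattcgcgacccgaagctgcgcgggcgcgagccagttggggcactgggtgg
Cebpb, chr2:167688665-167688964: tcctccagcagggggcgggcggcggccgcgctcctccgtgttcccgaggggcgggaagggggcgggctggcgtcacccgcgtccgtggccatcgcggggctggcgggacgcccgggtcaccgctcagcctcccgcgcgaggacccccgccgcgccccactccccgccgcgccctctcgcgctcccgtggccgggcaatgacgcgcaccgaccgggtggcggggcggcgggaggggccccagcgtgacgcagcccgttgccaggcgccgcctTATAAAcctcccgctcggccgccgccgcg
Both windows hold one TATA box (TATAAA), which begins 30 bases before the start in Cebpa and at base 22 after it in Cebpb. TATAAA on either strand occurs in 13.6% of all 32851 promoter windows of the table. No other motif searched was in these letters. The search covered both strands for a PU.1 core (GAGGAA), C/EBP sites (TTGCGCAA and TTGCNNAA), E-boxes (CACGTG and CATGTG), a RUNX core (TGTGGT), CRE (TGACGTCA), AP-1 (TGANTCA), NF-κB (GGGANTTTC) and an ATF4-C/EBP composite (TGATGNAA). TTGCGCAA is one form of TTGCNNAA, so these overlap. The GC content was 67.3% in the Cebpa window and 80.7% in the Cebpb window, against a median of 52.7% over all windows. A letter match is a description of the sequence and not of binding.

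Maf (ENSMUSG00000055435, chromosome 8, 115682942 to 115707794, minus strand) encodes c-MAF, a factor of the large MAF group that supports Il10 expression in macrophages. Its level was 10.4 and 4.35 FPKM in Control, 23.7 and 19.5 FPKM in Model, and 18.5 and 15.2 FPKM in MUS. All 4 libraries with LPS and ATP were above both Control libraries, and both Model libraries were above both MUS libraries. Of its exonic length, 5.34% is shared with Gm15655 on the opposite strand. The mean rose 2.93-fold from 7.35 ± 4.24 FPKM in Control to 21.6 ± 2.94 in Model (SD, n = 2 each), with 16.8 ± 2.30 in MUS. In Model vs. Control Maf was upregulated with a log2 fold change of 1.53 ± 0.38 (SE; limma, adjusted p = 0.0342), higher in 2 of 2 libraries. Divided by fragments on genes, the value was 1.04 and the call was lost (limma, adjusted p = 0.0884), and it was also lost without Control replicate 2 (0.99, limma, adjusted p = 0.0630) and without any one Model or MUS library. Without Control replicate 1 it was 2.07, above the 1.06 of Tfec there. For MUS against Control the log2 fold change was 1.19 (limma, adjusted p = 0.0585). With the replicate number, which the labels give as the batch, as a block, Maf was a DEG there (limma, adjusted p = 0.0303), as it was without Control replicate 1 (1.73, limma, adjusted p = 0.0196). For MUS against Model it was -0.34, with a 95% interval of -1.23 to 0.55 (limma, adjusted p = 0.870).

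Set against Spi1 in the same library, the level of Maf was 0.112 and 0.0329 for Control, 0.120 and 0.123 for Model, and 0.139 and 0.102 for MUS. Control replicate 1 lay within the range of the MUS libraries, and Control replicate 2 stood apart below. Over the 4 libraries with LPS and ATP against Control, the log2 difference of 0.99 had a two-sided exact permutation p of 0.133 (adjusted 0.462).

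Mitf (ENSMUSG00000035158, chromosome 6, 97807052 to 98021349, plus strand) encodes the factor that gives the MiT family its name, known for pigment cells, mast cells and osteoclasts. Its level was 21.9 and 35.4 FPKM in Control, 29.9 and 32.2 FPKM in Model, and 47.9 and 39.5 FPKM in MUS. The Control libraries spanned those of Model, and both MUS libraries were above the other 4. Its log2 fold change was 0.15 between Model and Control (limma, adjusted p = 0.762) and 0.63 between MUS and Control (limma, adjusted p = 0.183). Against Model, MUS had a log2 fold change of 0.48 with a 95% interval of -0.27 to 1.22 (limma, adjusted p = 0.746). The value of Model vs. Control turned to -0.38 when libraries were divided by their fragments on genes, and to -0.19 without Control replicate 1. Markers of mast cells, in which Mitf is also expressed, summed to between 0.194 and 0.873 FPKM in a library, with Fcer1a at 0 in all 6.

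Tfec (ENSMUSG00000029553, chromosome 6, 16833373 to 16898441, minus strand) encodes the MiT member whose expression is most restricted to the macrophage lineage. Its level was 1.58 and 6.85 FPKM in Control, 16.7 and 14.2 FPKM in Model, and 15.4 and 13.6 FPKM in MUS. The 4 libraries with LPS and ATP were close to each other and above both Control libraries, which differed from each other by 4.34-fold. In Model vs. Control Tfec was upregulated, 3.66-fold in the mean, with a log2 fold change of 1.86 ± 0.48 (SE; limma, adjusted p = 0.0398), higher in 2 of 2 libraries. It was upregulated against Control in MUS as well, by a log2 fold change of 1.78 ± 0.48 (limma, adjusted p = 0.0372). Between MUS and Model the log2 fold change was -0.08, with a 95% interval of -1.22 to 1.051 (limma, adjusted p = 0.980). Without Control replicate 1, the library in which Tfec was lowest, the log2 fold change of Model vs. Control was 1.06 (limma, adjusted p = 0.0792) and that of MUS vs. Control 0.98 (limma, adjusted p = 0.0781). Division by fragments on genes left 1.44 in Model vs. Control and 1.36 in MUS vs. Control, and neither then passed the test (limma, adjusted p = 0.0623 and 0.0667). Both calls were also lost without any one Model or MUS library.

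Within the MiT pair, Tfec held 6.74% and 16.2% of the summed FPKM in the Control libraries, 35.8% and 30.6% in those of Model, and 24.3% and 25.6% in those of MUS. The ratio of Mitf to Tfec was 13.8 and 5.17 for Control, 1.79 and 2.27 for Model, and 3.11 and 2.91 for MUS. Every library with LPS and ATP was below both Control libraries, with a log2 difference of -1.78 and a two-sided exact permutation p of 0.0667, the smallest possible (adjusted 0.4). MUS lay between Model and Control without overlap, with a two-sided exact permutation p of 0.333 against Model.

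The start of Tfec, the member with the largest increase in both comparisons with Control unless Control replicate 1 was left out, is shown in the same way as above, 5′ to 3′ on the minus strand.
Tfec, chr6:16898392-16898691: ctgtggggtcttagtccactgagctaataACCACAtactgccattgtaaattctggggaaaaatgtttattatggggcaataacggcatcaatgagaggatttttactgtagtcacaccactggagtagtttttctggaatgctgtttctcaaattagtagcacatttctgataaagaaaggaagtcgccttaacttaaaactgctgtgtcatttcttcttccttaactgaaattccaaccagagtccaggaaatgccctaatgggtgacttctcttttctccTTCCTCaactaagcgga
Its capitals are a RUNX core read on the opposite strand (ACCACA), which begins 221 bases before the start, and a PU.1 core read on the opposite strand (TTCCTC) at base 34 after it. The RUNX core occurs in 16.8% and the PU.1 core in 28.3% of all windows. The GC content of this window was 40.3%, below the median of all windows. Over the 10 windows of the 6 members, 4 held a RUNX core, 3 a TATA box, 2 a PU.1 core, 2 TTGCNNAA, 1 CACGTG and 1 CRE, and 0 held any of the other 5 motifs.

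Runx1 (ENSMUSG00000022952, chromosome 16, 92601466 to 92826149, minus strand) encodes the RUNX factor that founds definitive blood formation and keeps its place beside PU.1 in macrophages. Its level was 7.68 and 8.09 FPKM in Control, 5.43 and 8.90 FPKM in Model, and 9.46 and 8.26 FPKM in MUS. Model replicate 1 was the lowest library and Model replicate 2 lay among those of MUS. Its log2 fold change was -0.15 between Model and Control, with a 95% interval of -0.78 to 0.47 (limma, adjusted p = 0.709). Between MUS and Model it was 0.30, with an interval of -0.32 to 0.93 (limma, adjusted p = 0.820). Between MUS and Control it was 0.15, with an interval of -0.48 to 0.77 (limma, adjusted p = 0.707). The first value turned to 0.16 without Model replicate 1.

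Runx3 (ENSMUSG00000070691, chromosome 4, 135120652 to 135177990, plus strand), a factor best known in T cells, NK cells and some dendritic cells, was near the limit of detection. Its level was 0.297 and 0.297 FPKM in Control, 0.184 and 0.258 FPKM in Model, and 0.397 and 0.271 FPKM in MUS, from 34, 34, 13, 20, 30 and 22 fragments. The Poisson 95% interval was 0.0980 to 0.315 FPKM for the lowest library and 0.268 to 0.566 FPKM for the highest, and covers counting error only. The main test between groups left Runx3 out. Where genes of low FPKM were kept, Runx3 had a log2 fold change of -0.0878 for Model against Control (limma, adjusted p = 0.717). That fit gave 0.126 for MUS against Model (limma, adjusted p = 0.741) and 0.0385 for MUS against Control. T and NK cell markers summed to 0.167 to 1.65 FPKM, with Gzma at 0 in all libraries. That sum was highest in Model replicate 1, where Nkg7 stood at 0.930 FPKM. The part of such cells in the level of Runx3 was not tested. The ratio of Runx1 to Runx3 was between 23.8 and 34.5 in all 6 libraries.

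Other factors of the same families and their partners were followed as a list of 26 genes, of which 19 were tested. In Model vs. Control, 2 were upregulated, beside 9.5% of all genes, and 2 were downregulated, beside 5.56%. The median log2 fold change was -0.17 over the 19 genes against 0.04 over all genes. The upregulated genes were Egr1, an immediate early factor (1.75, limma, adjusted p = 0.0303), and Mafk, a small MAF protein (1.19, limma, adjusted p = 0.0252). The downregulated genes were Tfeb, the MiT factor of lysosome biogenesis (-2.29, limma, adjusted p = 0.00667), and Ddit3, which encodes the C/EBP family member CHOP (-1.46, limma, adjusted p = 0.0163). Tfeb was 9.86 and 4.75 FPKM in Control and between 0.408 and 0.825 FPKM in the other 4 libraries. Within the MiT family, Tfec was called upward and Tfeb downward in the same libraries. Of these 4 called genes, Tfeb alone was still called without any one of the 6 libraries, but none of the 4 when genes of low FPKM were kept in the test (limma, adjusted p = 0.0706 for Tfeb). With the replicate block, Bhlhe40, a bHLH repressor, was also a downregulated DEG (-1.33, limma, adjusted p = 0.0485, against 0.0513 without the block), and is named after its values were seen. Divided by fragments on genes, the list had 0 upregulated and 6 downregulated genes, where the median log2 fold change of all genes was -0.40. Between MUS and Control, Egr1 and Tfeb were called in the same direction, and Tfe3, a further MiT member, was downregulated (-1.11, limma, adjusted p = 0.0273). Of the 19, 0 were called in MUS vs. Model. Spib, Cebpe, Gata2 and Myb of the list stayed at or below 0.298 FPKM in every library.

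Genes that these factors are known to bind were followed in 4 lists. Of 16 macrophage genes known as targets of PU.1 and C/EBP, 3 were upregulated and 1 was downregulated in Model vs. Control, where 15.1% of all genes were DEGs. The median log2 fold change of the 16 was 0.38, against 0.04 over all genes. When libraries were divided by their fragments on genes it was -0.14, against -0.40 over all genes. Upregulated were Fcgr1, the high-affinity IgG receptor (3.57, limma, adjusted p = 0.00326), Cd14, the LPS co-receptor (2.64, limma, adjusted p = 0.0258), and Msr1, a scavenger receptor (2.08, limma, adjusted p = 0.0309). Csf1r, the receptor of the macrophage growth factor M-CSF, was downregulated (-1.37, limma, adjusted p = 0.0289), from 208 and 272 FPKM in Control to 83.4 and 101 FPKM in Model and 97.98 and 105 FPKM in MUS. Without any one Model or MUS library, Fcgr1 was the only gene of the 16 still called, as it was when genes of low FPKM were kept in the test. Csf2ra, a chain of the GM-CSF receptor, was downregulated between MUS and Control (-1.23, limma, adjusted p = 0.0480), at 205 and 205 FPKM in Control, 164 and 208 FPKM in Model, and 67.5 and 112 FPKM in MUS. The call of Csf2ra was lost with the replicate block (limma, adjusted p = 0.0543) and without any one of the 6 libraries.

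Of 10 inflammatory genes known as targets of C/EBPβ and C/EBPδ after LPS, 10 were upregulated in Model vs. Control, beside 9.5% of all genes. The list was made of genes known to respond to LPS, so this count does not measure C/EBP activity. The median log2 fold change of the 10 was 6.05. The largest were those of Il1b (9.67, limma, adjusted p = 0.00488), Il6 (8.82, limma, adjusted p = 0.000504), Ptgs2, the inducible prostaglandin synthase (8.13, limma, adjusted p = 0.00631), and Ccl2 (6.37, limma, adjusted p = 0.00201). Il1b differed between the Control libraries, and its log2 fold change was 7.42 without Control replicate 1, below the 8.44 of Il6 there, and 11.9 without Control replicate 2. The median of the 10 was 5.21 and 6.85 without these libraries. Their summed level was 55.4 and 359 FPKM in Control, 15462 and 9839 FPKM in Model, and 11286 and 9507 FPKM in MUS. Control replicate 2 was above Control replicate 1, and both were far below the other 4 libraries. With genes of low FPKM kept in the test, 6 of the 10 were called. In MUS vs. Model 0 of the 10 were called, with a median of -0.18. Cebpb and Cebpd themselves were not called in Model vs. Control. The 95% intervals of their log2 fold changes reached up to 1.47 and 1.42, so a rise of 2-fold lies within each. Whether the 10 genes rose with or without a change of these factors was not tested.

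Of 7 tested genes known as targets of c-MAF, only Il10 was upregulated between Control and Model (4.03, limma, adjusted p = 0.00107), beside 9.5% of all genes. Il10 went from 0.134 and 0.167 FPKM in Control to 22.9 and 13.8 FPKM in Model and 24.7 and 20.7 FPKM in MUS. It was called without any one of the 6 libraries. The median of the 7 was -0.25. C1qc, a chain of complement C1q, was downregulated between MUS and Control (-1.85, limma, adjusted p = 0.0175), at 174 and 110.2 FPKM in Control and 33.6 and 42.2 FPKM in MUS. This call was lost without Control replicate 1 and without either MUS library. Of 8 tested genes known as targets of MITF and TFEC, Acp5, the osteoclast acid phosphatase, was upregulated upon LPS and ATP (2.54, limma, adjusted p = 0.00660), beside 9.5% of all genes. Atp6v0d2, a subunit of the proton pump, was downregulated (-1.45, limma, adjusted p = 0.0339), beside 5.56%. Acp5 was still called without any one library, and Atp6v0d2 only without Control replicate 2. With genes of low FPKM kept in the test, neither was called (limma, adjusted p = 0.0572 for Acp5 and 0.141 for Atp6v0d2). The median of the 8 was 0.10, and -0.39 after division by fragments on genes, against 0.04 and -0.40 over all genes. Of either list, 0 genes were called in MUS vs. Model.

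**Figure D4:**
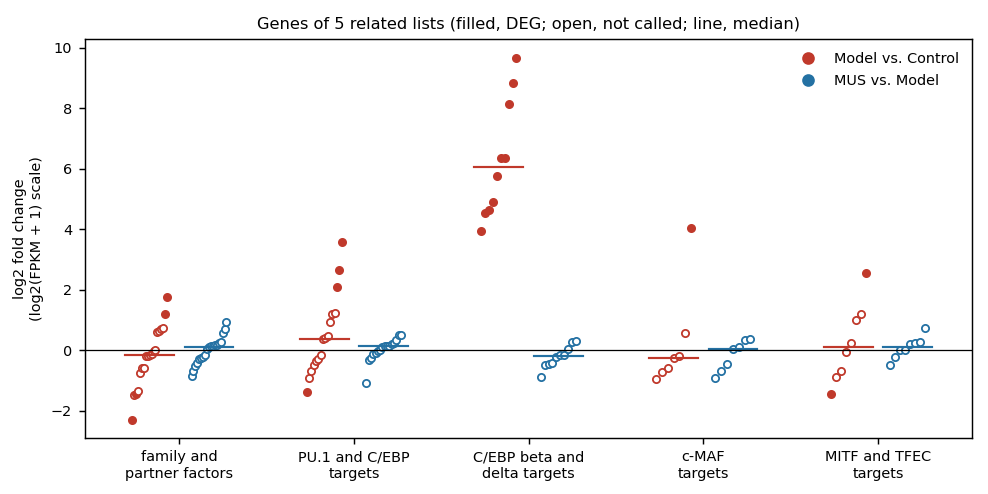
Log2 fold change on the log2(FPKM + 1) scale (vertical axis) of each tested gene of 5 lists of related factors and known target genes for Model against Control (red) and MUS against Model (blue); filled points are DEGs, open points were not called, and lines are medians. The 10 targets of C/EBPβ and C/EBPδ are all filled in red around a median of 6.05, and 0 points are filled in MUS vs. Model.

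Beside these changes, the only tested neutrophil marker, S100a8, was upregulated between Control and Model (1.90, limma, adjusted p = 0.0365). The call of S100a8 was lost in 8 of 14 alternatives, among them division by fragments on genes (1.37, limma, adjusted p = 0.0518) and the fits without Control replicate 1, Model replicate 1 or either MUS library. The summed neutrophil markers were 13.5 and 30.6 FPKM in Control, 109.98 and 56.5 FPKM in Model, and 64.0 and 50.3 FPKM in MUS. These sums are S100a8 alone, apart from Mpo at 0.0207 FPKM in Model replicate 1. S100a9, Ly6g, Elane and Retnlg of the same list were at 0 in all 6 libraries. Whether these zeros mean absence of the RNA or a gap in the counting was not tested. The summed eosinophil markers were 4.17 and 2.78 FPKM in Control and between 1.42 and 1.95 FPKM in the other libraries, with Prg2, Ear1 and Epx at 0. The part of such cells in the values of Cebpa, Cebpd or Tfec was not tested.

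For Spi1, Cebpb, Maf and Runx1, the genes with the most similar course were sought by Pearson's r of log2(FPKM + 1) over the 6 libraries, as a description. Spi1 went most closely with Mlx (r = 0.994), Hint3 (0.992) and Prdx5 (0.990), and 3.29% of all genes tested had an r over 0.9 with it. Cebpb went with Rps12-ps3 (0.995), Utp11 (0.994) and Yipf4 (0.994), all of them highest in Model replicate 1. Maf went with the lincRNA Gm34342 (0.990), Rhoh (0.987) and Wdr44 (0.977), and 0.929% of all genes had an r over 0.9 with it. Runx1 went with Tpr (0.993), Virma (0.992) and Gm9938 (0.988), all of them lowest in Model replicate 1. The 6 libraries share groups, depth and scaling, and the similarity of a pair may rest on 1 library.

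Over 14 alternatives to the fit of Model vs. Control, the log2 fold change of Cebpa ranged from -3.75 to -2.52, that of Maf from 0.99 to 2.07 and that of Tfec from 1.06 to 2.67. These 3 members and Spi1, at 0.12 to 0.93, kept their direction, as did Cebpd, at 0.07 to 1.05, in the 13 alternatives that tested it.

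**Figure D5:**
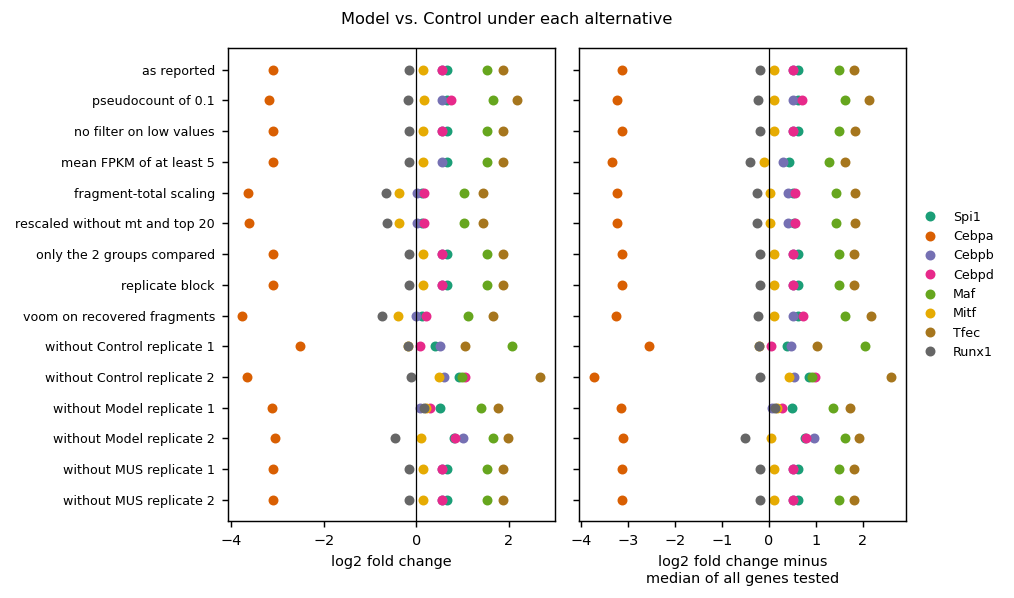
Log2 fold change of the 8 tested genes in Model vs. Control (horizontal axes) under the main setting and each of 14 alternatives (rows), as fitted on the left and after subtraction of the median of all genes tested on the right. Cebpa stays at or below -2.52 on the left in every row, and the values of Cebpb, Mitf and Runx1 lie on both sides of 0.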

How the data were processed

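Poly-A RNA of 2 libraries per group was sequenced. The values analysed are FPKM as the authors deposited them, 1 column for each library, beside the length of each gene. The paper's methods name RSEM, whereas the submitters' processing notes name HISAT2, featureCounts 1.5.0-p3 and GRCm39. The positions given with the genes are on GRCm38: of 54409 gene identifiers shared with GENCODE M21, 98.3% had identical coordinates. Multiplied by gene length, 100% of the FPKM were whole multiples of a library's smallest step (tolerance 0.1 of it), which gave back the fragments per gene. Intervals from these fragments cover counting error only. Each of the 6 columns belonged to a sample, leaving 0 unassigned.

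From these values, limma 3.58.1 in R 4.3.3 was fitted with a mean-variance trend to log2(FPKM + 1), over 9794 genes whose mean was at least 1 FPKM, all 6 libraries in one model of 3 groups (3 residual and 4.04 prior degrees of freedom). Adding 1 makes the fold change of a low gene smaller than its ratio of means. p-values are two-sided and Benjamini-Hochberg adjusted over all genes tested. The fit was also run on simulated data with independent noise and no shift of scale between libraries. That run cannot test how the fit handles the scaling of the Control libraries. Ratios were compared with exact permutation tests in SciPy 1.17.1. Promoter windows are from RefSeq. Tables used pandas 2.3.3 and NumPy 2.4.6 under Python 3.11.15, and plots used Matplotlib 3.10.9.

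Genes named are the 9 members, up to 4 called genes of each list with the largest change in Model vs. Control, list genes called in another comparison only, and the 3 genes most like Spi1, Cebpb, Maf and Runx1. Where a symbol of a list occurred more than once, the gene with the highest mean was used. Members and lists were chosen with earlier results of these data known. The labels give the replicate number as the batch, which pairs the libraries. Differences between replicates 1 and 2 correlated across genes with r = 0.12 between Control and Model, 0.14 between Model and MUS and -0.09 between Control and MUS. The design had no block, and the blocked fit is an alternative. No source says whether the 2 libraries of a group came from separate animals, so p-values measure the spread between these libraries, which may be technical. Alternatives changed the pseudocount, the filter, the scaling, the samples, the block and the tool, and left out each library in turn.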

Additional observations from a re-analysis of the deposited data

How the results depend on the processing

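With 2 libraries per group, limits are set by the spread between libraries and by the per-million scale of the Control libraries. The number of DEGs in Model vs. Control (1475) was 260 without a filter on low values, 797 with only the libraries compared, 2791 with voom and 692 to 2077 with a library left out. In MUS vs. Control (1980) it was 456 without a filter, 3169 with voom and 184 to 2398 with a library left out. In MUS vs. Model (0) it was 1 with a pseudocount of 0.1, 7 with only the libraries compared, 4 with the replicate block and 0 to 31 with a library left out. DEGs upward in Model vs. Control were 63.1% in the deposited scaling, 29.4% when divided by fragments on genes, 29.4% when rescaled without mitochondrial and the 20 highest genes and 24.5% with voom. In MUS vs. Control the shares were 55.9%, 27.4%, 26.9% and 23.8%. The cause of these shifts was not tested.

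Of the 8 tested members, 3 were DEGs in Model vs. Control, beside 15.1% of all genes tested. Without a filter, where Runx3 was tested as well, 0 were called, beside 260 of 30192 genes. Under either other scaling 1 was called, beside 2200 and 2190 of 9794 genes. With only the libraries compared 1 was called, beside the number of genes given above, and with a library left out not all 3 calls held. In MUS vs. Control the number of members called was 2 in the main setting, beside 20.2% of all genes. There it was 1 with a pseudocount of 0.1, without a filter or with only the libraries compared, and it changed with a library left out. In MUS vs. Model it stayed at 0 in all 14 alternatives. Apart from Maf in MUS vs. Control, the replicate block changed no call among the members.

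Members that turned in Model vs. Control were Mitf at -0.38 with fragments on genes, -0.38 when rescaled, -0.40 with voom and -0.19 to 0.49 with a library left out, Cebpb at -0.0030 with voom, and Runx1 at -0.47 to 0.16 with a library left out. In MUS vs. Model, leaving out a library gave -0.77 to 0.16 for Cebpb, -0.19 to 0.026 for Tfec and -0.0094 to 0.61 for Runx1, each turned by Model replicate 1. In MUS vs. Control the values with fragments on genes, rescaled and with voom were -0.19, -0.21 and -0.20 for Spi1, -0.29, -0.30 and -0.30 for Cebpb, and -0.34, -0.36 and -0.39 for Runx1. None of these members was called in that comparison. Ratios of recovered fragments differ from ratios of FPKM by a fixed factor of gene length, so that alternative gives the same differences and p by construction and tests nothing.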
